A study of Mus musculus with 6 samples.

Results

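Cadherins and protocadherins are cell-surface adhesion proteins, and their genes were examined in translating RNA from the cortex of mice that lacked p11. The family was taken as every probe set of a single gene whose symbol was Cdh followed by a number or began with Pcdh. This gave 101 probe sets for 56 genes, of 18193 genes with a single-symbol probe set. Each gene was read from its brightest probe set. They comprised 5 type I classical cadherins, 11 type II classical cadherins, 5 other Cdh genes, 4 delta-1, 5 delta-2 and 3 other non-clustered protocadherins, 22 clustered beta protocadherins and 1 clustered gamma protocadherin. A further 6 probe sets named several alpha protocadherin genes at once and were kept apart.

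The mice carried a bacterial artificial chromosome with the S100a10 driver, which tags ribosomes for translating ribosome affinity purification (TRAP), and the p11 knockout, in the line ES691/p11 KO. S100a10 encodes p11. Both groups carried the same deletion and the same transgene, and no group with intact p11 was analysed here. One group drank fluoxetine, a serotonin reuptake inhibitor, at 0.167 mg/ml in 1% saccharine (FLX), and the other drank 1% saccharine alone (VEH), each for 15 to 18 days. The line had been backcrossed for 3 to 5 generations from FVB onto C57BL/6. Age, sex and the number of animals behind an array were not given in the sources used here. Each group had 3 arrays described as biological replicates. Per the submitters, some cells other than neurons carry the tag too, so the RNA is not of 1 cell type. A lower value in such bulk RNA cannot be told apart as fewer cells of a type or less RNA per cell.

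Classical cadherins bind the same or a closely related cadherin on a neighbouring cell in the presence of calcium, and their cytoplasmic tails hold beta-catenin and p120-catenin, which link them to actin. Protocadherins share the extracellular cadherin repeats but lack the catenin-binding tail. In cortex the classical members are known from synapses and cell sorting, the delta protocadherins from axon growth and synapse remodelling, and the clustered protocadherins from neuronal self-recognition, since each neuron uses its own combination of isoforms.

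The values were array intensities normalized by the authors, and limma was run on their log2. Over the arrays, 21158 to 21682 probe sets reached 50. The 4 arrays of replicates 1 and 2 correlated with each other at Pearson's r of 0.987 to 0.995 across probe sets, which are not independent replicates. The replicate 3 arrays of FLX and VEH correlated at 0.973 with each other and at 0.867 to 0.915 with the rest. What distinguishes replicate 3 is not given in the labels. The brightest S100a10 probe set read 2222, 2037 and 349 in FLX replicates 1, 2 and 3, and 3111, 2248 and 643 in VEH. Both replicate 3 arrays were its lowest. Other S100a10 probe sets read below 50 on every array, at 34.0 to 49.35 and at 4.98 to 8.22. In the dimmest, FLX replicate 3 (8.01) was not among the lowest arrays. With no intact group these values do not check the genotype. Markers of pan-neuronal, pyramidal and interneuron identity were all present, beside markers of glia, vessels and leptomeninges that are described further on.

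Of the 56 genes, 33 had a mean of 50 or more in FLX or VEH and were tested. These were Cdh1, Cdh2, Cdh4 and Cdh15 of type I, Cdh6, Cdh7, Cdh8, Cdh9, Cdh10, Cdh11 and Cdh22 of type II, Cdh13, 3 delta-1, all 5 delta-2, Pcdh20 and 12 beta protocadherins. The other 23 were Cdh3, Cdh5, Cdh16, Cdh17, Cdh18, Cdh19, Cdh20, Cdh23, Cdh26, Pcdh1, Pcdh12, Pcdh15, Pcdhb1, Pcdhb2, Pcdhb4, Pcdhb5, Pcdhb6, Pcdhb8, Pcdhb10, Pcdhb11, Pcdhb13, Pcdhb18 and Pcdhgc4. They never exceeded 70.8 on any array and went down to 4.28. The brightest value among them belonged to Cdh5, VE-cadherin of endothelial junctions, which read 35.0, 69.2 and 13.9 in FLX replicates 1, 2 and 3 and 47.7, 70.8 and 13.0 in VEH.

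**Figure D1:**
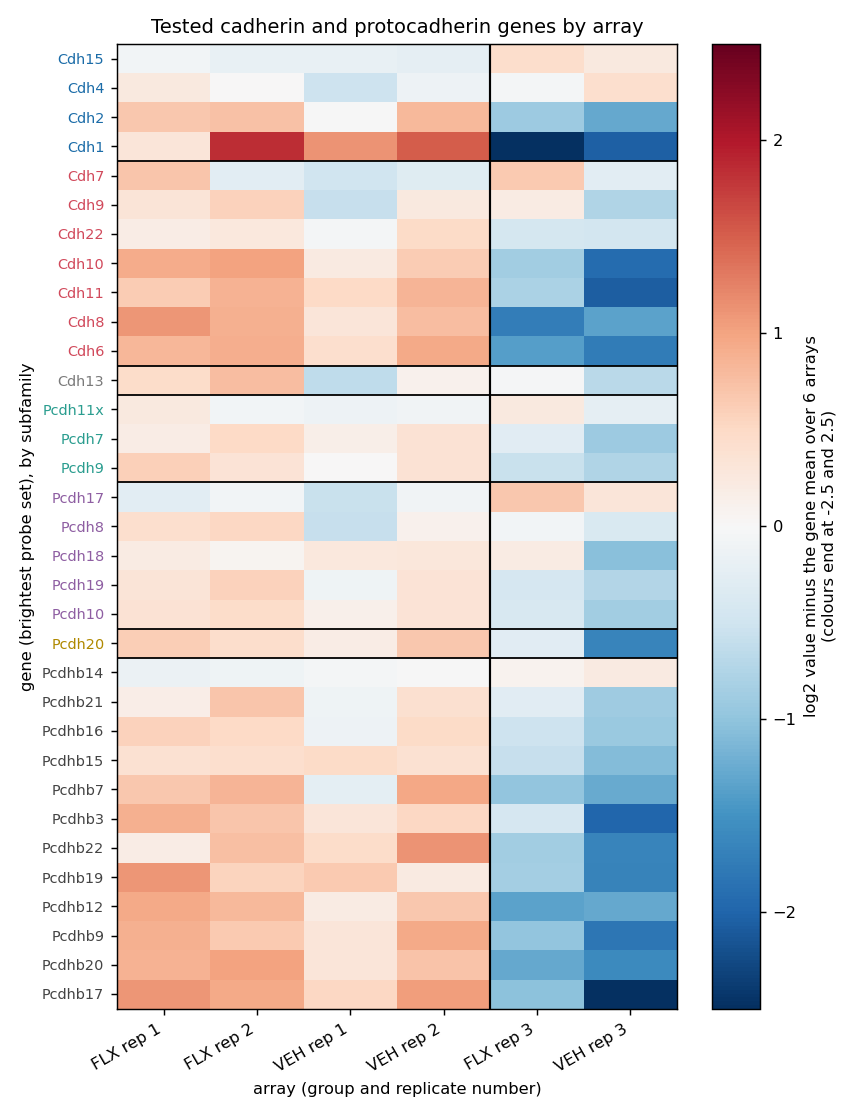
Log2 normalized intensity of each tested cadherin and protocadherin gene, 1 row per gene grouped by subfamily, minus that gene's mean over 6 arrays; columns are arrays and colours end at 2.5 either way. Blue marks low values, and both replicate 3 columns are the lowest of the 6 for 23 of the 33 genes.

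Fluoxetine was compared with vehicle first, which is the study's own comparison. No cadherin or protocadherin gene passed the test, and the share called over all probe sets was 0.0%. Of 22200 probe sets tested by limma, 0 passed an adjusted p of 0.05 and 83 had an unadjusted p below 0.05. Counted by gene, 37 of 12213 genes had an unadjusted p below 0.05, against 1 of the 33 family genes, Cdh13. In the fit without the replicate number, the adjusted p was 1.00 for every gene named below. Errors and p-values are from that fit unless a block is named. Most differences had the same sign: 31 of 33 genes had a higher mean log2 value in FLX, with a median difference of 0.32, against 7090 of 12213 genes and a median of 0.05 over all genes tested. The signs of Pcdhb7 and Pcdhb21, both higher in FLX, are not independent of the filter. They passed the minimum of 50 only through their FLX means of 54.1 and 57.5, with 44.8 and 44.9 in VEH. Pcdhb14, described below, passed only through VEH. Under quantile normalization and under median centring, 30 of 33 were higher.

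The size and sign of this lean moved with single arrays. The median difference was -0.11, with 11 of 33 genes higher in FLX, when VEH replicate 3 was left out, and 0.75 without FLX replicate 3. It was 0.18 without FLX replicate 1, 0.14 without FLX replicate 2 and 0.69 without VEH replicate 2. Both replicate 3 arrays were low for most family genes, and leaving out 1 array unbalances them between the groups. These single-array medians therefore carry part of the replicate 3 difference. With both replicate 3 arrays left out, which keeps the groups balanced, the median was 0.28 and 28 of 33 genes were higher. By replicate number, the median FLX minus VEH difference of the family was 0.45, 0.04 and 0.46 for numbers 1, 2 and 3, against 0.01, -0.01 and 0.15 for all genes tested. FLX was higher in every replicate number for 17 genes and lower in every one for 1, Pcdhb14. Over all genes tested these counts were 2467 and 1655. Without the minimum on intensity, 38 of the 56 genes were higher in FLX, with a median of 0.15.

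**Figure D2:**
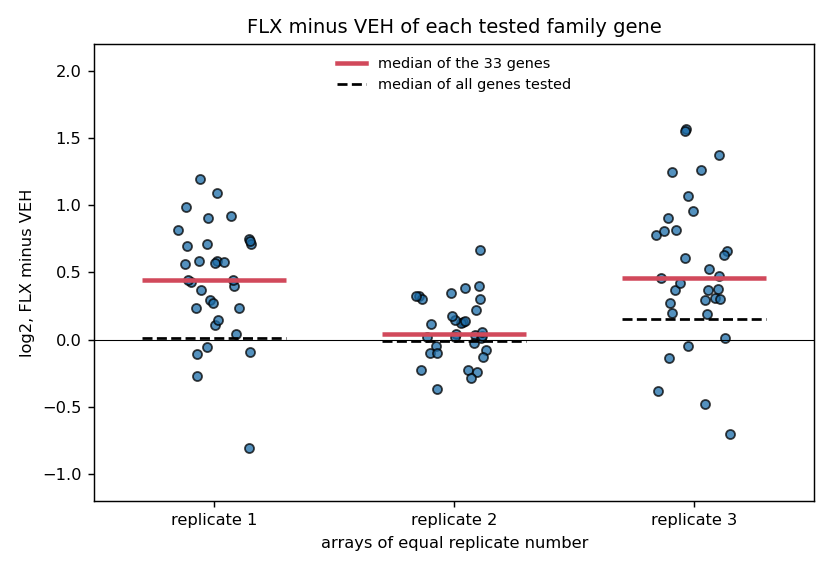
FLX minus VEH difference in log2 intensity within each replicate number for the 33 tested genes, 1 point per gene, with the family median (solid) and that of all genes tested (dashed). The family medians are 0.45, 0.04 and 0.46, and those of all genes are 0.01, -0.01 and 0.15.

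Cdh13, or T-cadherin, is anchored to the membrane by a lipid instead of a transmembrane tail. It read 299, 374 and 215 in FLX replicates 1, 2 and 3, and 140, 236 and 136 in VEH. FLX exceeded VEH at each replicate number, but the lowest FLX value lay below the highest VEH value, so the groups overlapped. The means were 296 ± 79.7 (SD, n = 3) in FLX and 171 ± 56.4 (SD, n = 3) in VEH, a log2 difference of 0.81 with SE 0.33 and an unadjusted limma p of 0.0484. With the replicate number as a block, Cdh13 had SE 0.17, an unadjusted limma p of 0.00191 and an adjusted p of 0.623. Its other tested probe sets differed by 0.79 and -0.13, so they did not all have the same sign.

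The type II cadherins Cdh9, known from hippocampal mossy fibre synapses, and Cdh7 came next. Cdh9 read 366, 439 and 336 in FLX and 195.5, 345 and 173 in VEH, a log2 difference of 0.74 with SE 0.31 and unadjusted p of 0.0561. The FLX values were higher within each number, with FLX replicate 3 below VEH replicate 2. Cdh7 read 178, 91.8 and 173 in FLX and 78.0, 89.1 and 92.3 in VEH, a log2 difference of 0.71 with SE 0.31 and p of 0.0600. Here FLX replicates 1 and 3 stood above all VEH arrays and FLX replicate 2 lay among them. The other tested probe sets of Cdh7 were dimmer and did not overlap between the groups. They differed by 0.28 (unadjusted limma p of 0.244) and 0.76 (0.0593). The latter passed the minimum only through FLX, with means of 64.85 in FLX and 36.7 in VEH. All 7 tested type II genes had a higher mean log2 value in FLX, with a median difference of 0.47, and none passed the test.

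Pcdh8, also called arcadlin, is a delta-2 protocadherin that neuronal activity induces and that promotes N-cadherin endocytosis. It read 2668, 2840.5 and 1897 in FLX and 1344, 2152 and 1528 in VEH, a log2 difference of 0.57 with SE 0.28 and p of 0.0858. The second probe set of Pcdh8 differed by 0.67. FLX was higher within each number, and FLX replicate 3 lay below VEH replicate 2. The X-linked delta-1 gene Pcdh11x was the only gene whose brightest probe set had no overlap between the groups, at 331, 269 and 333 in FLX and 256, 265 and 239 in VEH. FLX was higher and non-overlapping in 2.61% of all genes tested, and the Pcdh11x difference was 0.29 with SE 0.19 and p of 0.180. Its second probe set did overlap, since VEH replicate 3 (203.5) lay above FLX replicate 2 (172.5).

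Of the 33 tested genes, Pcdhb14 and Cdh1 had a lower mean log2 value in FLX. Pcdhb14 read 45.2, 46.1 and 53.1 in FLX and 48.6, 49.5 and 58.5 in VEH, a difference of -0.12 with SE 0.19 on the log2 scale, and -0.031 without VEH replicate 3 or -0.19 without FLX replicate 3. It passed the minimum only through its VEH mean of 52.2, with 48.1 in FLX, so its sign is not independent of the filter. Cdh1, E-cadherin of epithelial sheets, differed by -0.40 with SE 1.43, an error that includes the spread between replicate numbers. With the replicate number as a block, its SE was 0.24 and its adjusted limma p 0.663. Pcdhb3 had a difference of 0.78 with SE 0.74, from 196, 171 and 79.3 in FLX and 130, 151 and 26.8 in VEH. With the block, its SE was 0.26 and its adjusted limma p 0.623. Both replicate 3 arrays were the lowest for Pcdhb3, and the FLX and VEH ranges overlapped.

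**Figure D3:**
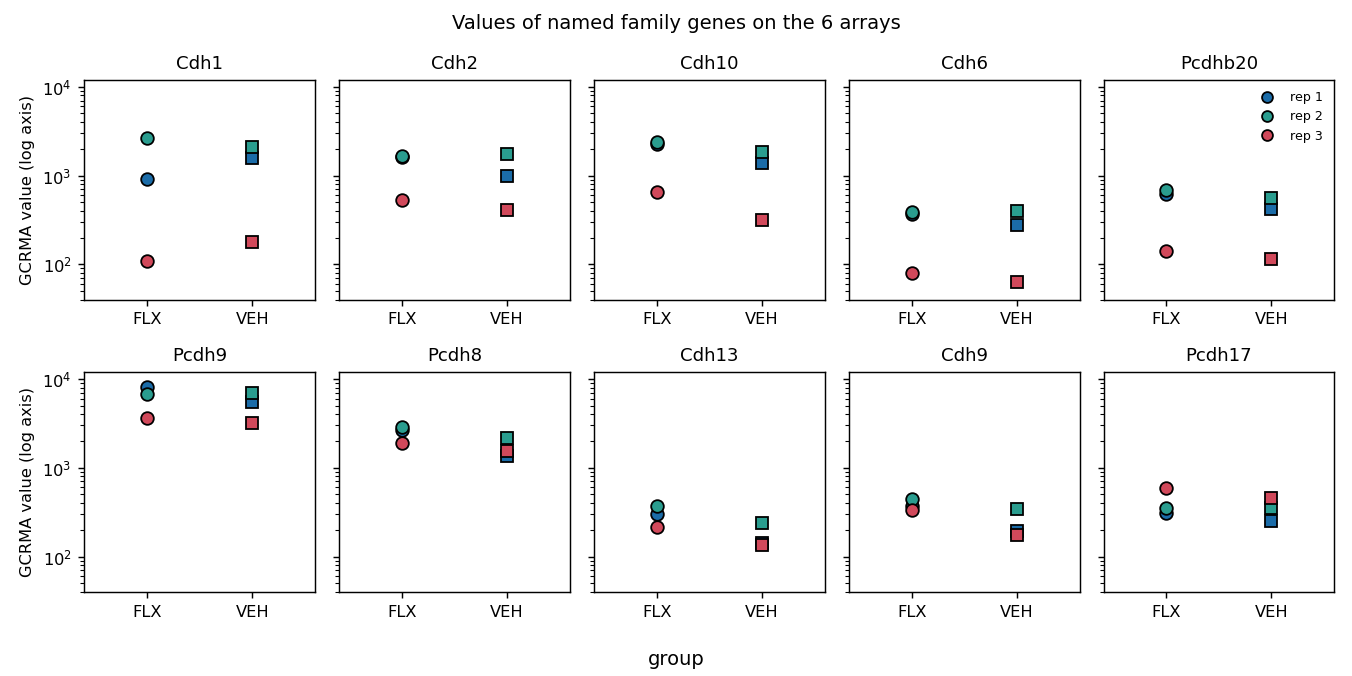
Normalized intensity on a log axis for 10 family genes, 1 point per array, with FLX at the left (circles), VEH at the right (squares) and colour for the replicate number. Cdh13 lies at 215 to 374 in FLX and 136 to 236 in VEH, and for Cdh1, Cdh2, Cdh6 and Cdh10 both replicate 3 points lie below all others.

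The larger differences in the family ran along replicate number. Replicate 3 was compared with replicates 1 and 2, 2 arrays against 4, with treatment kept as a term. This division was chosen because those arrays were already known to stand apart, so its p-values describe the division and do not test a condition of the study. By limma, 25 of the 33 genes passed an adjusted p of 0.05, against 57.1% of all genes tested. They fell in 23 cases, where 31.5% of all genes fell, and rose in 2, where 25.7% of all genes rose. The median difference was -1.08 on the log2 scale against -0.01 for all genes tested, and in 23 family genes both replicate 3 arrays were below all 4 others, as in 4305 of 12213 genes overall. Within FLX the family median was -0.97 and within VEH it was -1.32, against 0.06 and -0.10 for all genes. Re-scaling by quantiles moved the median of all probe sets from 0.04 to 0.16, and median centring moved it to 0.19. The family medians were then -0.97 and -0.94.

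The minimum on intensity bears on these counts. Replicates 1 and 2 supply 4 of the 6 arrays, so a gene high there passed the minimum more readily than a gene high in replicate 3. Without it, 27 of all 56 genes were called, 24 lower and 3 higher, against 39.7% of 18193 genes called and 20.5% called lower. The family median was then -0.26, and that of all genes was 0.13.

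Among the type I cadherins, Cdh1 and Cdh2 fell and Cdh15 rose. Cdh1 read 907, 2627 and 110 in FLX replicates 1, 2 and 3 and 1589.5, 2101 and 178 in VEH. Both replicate 3 arrays were far below the rest, and replicates 1 and 2 also differed widely within FLX. The difference was -3.59 with SE 0.39 on the log2 scale, at an adjusted p of 3.12e-04. Cdh2, N-cadherin of synaptic and neuroepithelial junctions, read 1605, 1657 and 533 in FLX and 989.0, 1751 and 411 in VEH. It fell by 1.65 on the log2 scale with SE 0.23, or 3.13-fold, at an adjusted p of 8.95e-04, and VEH replicate 1 lay between the replicate 3 arrays and the other 3.

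Cdh15, M-cadherin of skeletal muscle, read 99.2, 92.2 and 141 in FLX and 92.2, 89.8 and 123 in VEH, 0.50 higher on the log2 scale with SE 0.14 and an adjusted p of 0.0200. Leaving out FLX replicate 2, FLX replicate 3 or VEH replicate 2 took its adjusted p to 0.0627, 0.0641 and 0.0554. Cdh4, R-cadherin, read 156, 133 and 127 in FLX and 92.7, 121.5 and 177 in VEH. The replicate 3 array was the lowest in FLX and the highest in VEH, and Cdh4 was not called, except without FLX replicate 3 (0.74, adjusted p of 0.0411). Its second probe set had the opposite sign, at -0.22.

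The type II cadherins, which help sort neurons into nuclei and match synaptic partners, fell in 5 of 7 tested genes, with a median of -2.09. Over all genes tested, 31.5% fell. The other 4 of the 11 type II genes stayed below the minimum. Cdh6 read 371, 391 and 80.7 in FLX and 281, 404 and 62.5 in VEH, a difference of -2.34 with SE 0.19, or 5.05-fold, at an adjusted p of 1.14e-04. Cdh8 read 750.5, 644 and 105 in FLX and 426, 592 and 137 in VEH, a difference of -2.30 with SE 0.24, or 4.93-fold, at an adjusted p of 2.64e-04. For both genes the replicate 3 arrays were close to each other and well below the remaining 4. Cdh10 read 2283, 2403 and 657 in FLX and 1391, 1841 and 313 in VEH, a difference of -2.09 with SE 0.19, or 4.27-fold, at an adjusted p of 1.74e-04. Its replicate 3 arrays were below all others, with VEH replicate 3 the lowest.

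Cdh11, known from mesenchymal cells as OB-cadherin, read 464, 541.5 and 172 in FLX and 420.3, 538 and 71.5 in VEH. It differed by -2.14 with SE 0.27, or 4.41-fold, at an adjusted p of 5.97e-04, and VEH replicate 3 was the lowest array. It was 2.92-fold without VEH replicate 3 and 6.64-fold without FLX replicate 3, and called in both. Cdh22 fell by 0.68, at an adjusted p of 0.0161, but was not called without FLX replicate 3 (0.0705) or without VEH replicate 3 (0.0777). Cdh7 and Cdh9 were not called, nor was Cdh13 from its brightest probe set, except without VEH replicate 1 (-0.70, adjusted p of 0.0239). The second probe set of Cdh13 was called lower with all arrays (-0.74, adjusted p of 0.0223).

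Promoter sequence was set beside these results for Cdh6, Cdh8 and Cdh10, the type II genes with a window that fell most. A pair of delta-2 protocadherins that were not called lower was added, to show what the genes that moved alike have in common upstream. Windows of 150 bases before the RefSeq start (GRCm38.p6) were found for 20 of the 56 genes, which include neither Cdh11 nor any clustered protocadherin. The windows shown are Cdh6 at chr15:13173676-13173825 (minus strand), Cdh8 at chr8:99416472-99416621 (minus strand), Cdh10 at chr15:18820179-18820328 (plus strand), Pcdh17 at chr14:84443413-84443562 (plus strand) and Pcdh8 at chr14:79771313-79771462 (minus strand). They are written 5′ to 3′ on the gene's strand, and capitals mark the letters of a CCAAT box (CCAAT or its reverse complement ATTGG), a GC box (GGGCGG or CCGCCC) or a TATA box (TATAAA or TTTATA).
Cdh6: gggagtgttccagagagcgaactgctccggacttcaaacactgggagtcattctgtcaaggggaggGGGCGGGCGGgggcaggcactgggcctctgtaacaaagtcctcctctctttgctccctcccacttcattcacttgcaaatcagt
Cdh8: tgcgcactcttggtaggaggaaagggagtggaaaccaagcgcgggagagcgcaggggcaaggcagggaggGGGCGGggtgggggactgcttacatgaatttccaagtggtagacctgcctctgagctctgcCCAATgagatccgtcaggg
Cdh10: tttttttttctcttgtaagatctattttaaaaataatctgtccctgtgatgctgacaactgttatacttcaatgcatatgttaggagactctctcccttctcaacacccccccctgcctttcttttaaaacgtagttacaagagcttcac
Pcdh17: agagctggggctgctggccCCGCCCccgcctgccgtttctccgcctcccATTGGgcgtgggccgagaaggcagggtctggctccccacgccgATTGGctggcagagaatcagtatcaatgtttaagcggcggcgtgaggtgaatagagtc
Pcdh8: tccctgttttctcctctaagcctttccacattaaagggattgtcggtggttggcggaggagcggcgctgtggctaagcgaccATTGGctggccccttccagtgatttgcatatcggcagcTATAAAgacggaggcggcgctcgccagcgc

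Cdh6, Cdh8 and Cdh10 fell alike, and their windows held different motifs: Cdh6 had overlapping GC boxes, Cdh8 a GC box and a CCAAT box, and Cdh10 none of the 3 motifs. The GC content of these windows was 57.3%, 61.3% and 37.3%. Cdh22, which fell less (-0.68), also had a window, not shown, with none of the 3 motifs and a GC content of 73.3%. Pcdh17, which rose in replicate 3, held a GC box and a pair of CCAAT boxes, the nearer at -58 from the start. Pcdh8, which was called in replicate 3 only without VEH replicate 1 (-0.52, adjusted p of 0.0455), held a CCAAT box at -68 and a TATA box at -30. Over the genes with a window, the CCAAT letters stood in 13 of 20 genes and 60.9% of their 23 windows, against 24.5% of 32851 windows of that length. GC boxes stood in 26.1% of these windows against 28.6% of all, and TATA boxes in 8.7% against 7.57%. Windows on chr18 were left out of the 23 but not of the 32851, so the shares are not from like sets. These are letter matches and not measured binding, and the 23 windows include overlapping ones of Pcdh9.

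Cdh6, Cdh9, Cdh10 and Cdh18 all start on chromosome 15, yet differed in outcome. Cdh6 and Cdh10 fell, Cdh9 was not called at -0.42, and Cdh18 stayed below the minimum. Pcdh8, Pcdh9, Pcdh17 and Pcdh20 all start on chromosome 14, and their differences were -0.35, -0.99, 0.73 and -1.44 on the log2 scale. Of these, Pcdh8 was not called.

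Of the non-clustered protocadherins, 2 of 3 delta-1 genes fell, with a median of -0.89, and 2 of 5 delta-2 genes fell and 1 rose, with a median of -0.63. Over all genes tested, 31.5% fell and 25.7% rose. Pcdh9 read 8154, 6799 and 3643 in FLX and 5446, 6906 and 3187 in VEH, and fell by 0.99 on the log2 scale with SE 0.17 at an adjusted p of 0.00221. Pcdh7 read 1365, 1715 and 996.5 in FLX and 1329, 1549 and 646 in VEH, and fell by 0.89 at an adjusted p of 0.00613, a call lost without VEH replicate 3 (adjusted p of 0.0629). In both delta-1 genes the replicate 3 arrays were the lowest of each group. Pcdh11x was not called from its brightest probe set, at 0.02, but its second was called higher, at 0.50 with an adjusted p of 0.0365.

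Pcdh10, a delta-2 protocadherin that acts in activity-dependent synapse elimination, read 1184, 1273 and 697 in FLX and 1006, 1175 and 506 in VEH. It fell by 0.96 at an adjusted p of 0.00184, with both replicate 3 arrays below the others. Pcdh19, the X-linked gene of a female-limited epilepsy, fell by 0.86 at an adjusted p of 0.00541, and was the lowest in both replicate 3 arrays too. Pcdh20 read 233, 205 and 125 in FLX and 171, 242 and 48.2 in VEH. It fell by 1.44 at an adjusted p of 0.00471, with VEH replicate 3 the lowest array. The difference was -0.81 without VEH replicate 3 (adjusted p of 0.0475) and -2.08 without FLX replicate 3. Pcdh18 was 114, 102 and 113 in FLX and 118, 120.0 and 47.6 in VEH, so its low value was in VEH replicate 3 alone. It was not called, except without FLX replicate 3, when VEH replicate 3 alone stood for the number (-1.32, adjusted p of 0.00294).

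Pcdh17, a delta-2 protocadherin of corticostriatal presynaptic sites, went the other way. It read 307.5, 355 and 590.2 in FLX and 251, 350.5 and 456.5 in VEH, and each replicate 3 array was above all 4 others. The difference was 0.73 with SE 0.19 at an adjusted p of 0.0125. Its second probe set gave 0.27 at an adjusted p of 0.380, and the mean of its probe sets gave 0.50 at 0.0665, so the call rests on 1 probe set. Without FLX replicate 3 the adjusted p was 0.0854.

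Clustered beta protocadherins are single-exon genes, each with its own promoter, and neurons choose among them. They fell in 11 of 12 tested genes, with a median of -1.84, where 31.5% of all genes tested fell and 25.7% rose. The other 10 of the 22 beta genes stayed below the minimum. Pcdhb17 read 303, 273 and 69.8 in FLX and 204, 292 and 23.8 in VEH, a difference of -2.70 with SE 0.30, or 6.49-fold, at an adjusted p of 3.54e-04. It was 4.12-fold without VEH replicate 3 and 10.2-fold without FLX replicate 3, and called in both. Pcdhb20 read 625, 691 and 141 in FLX and 423, 559.6 and 115 in VEH, a difference of -2.15 with SE 0.17, or 4.45-fold, at an adjusted p of 1.13e-04. Pcdhb9 read 1102, 943 and 301 in FLX and 740.4, 1147.5 and 172 in VEH, a difference of -2.09, or 4.26-fold, at an adjusted p of 3.76e-04. In these 3 genes both replicate 3 arrays were below all others. Pcdhb12, Pcdhb19, Pcdhb22, Pcdhb3, Pcdhb7, Pcdhb15, Pcdhb16 and Pcdhb21 also fell, with differences of -1.97, -1.90, -1.89, -1.80, -1.69, -1.24, -1.08 and -0.88 on the log2 scale. Pcdhb3 moved to -1.21 without VEH replicate 3 and to -2.39 without FLX replicate 3, and Pcdhb21 was not called without VEH replicate 3 (adjusted p of 0.113). Pcdhb14 differed by 0.24 and was not called, but it read only 45.2 to 58.5 over the arrays, close to the minimum of 50. The beta genes are close paralogs, so values of single genes are uncertain where a probe set matches several.

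The probe sets that name several alpha protocadherin genes cannot be assigned to 1 of them. Of the 6, 4 were tested. The brightest read 2774, 2483 and 1073 in FLX and 1873, 2113 and 864 in VEH, a difference of -1.25 at an adjusted p of 4.63e-04. Others differed by -1.90 at an adjusted p of 1.55e-04 and by -1.01 at 0.00787, and the last by 0.24 at 0.416. Thus 3 of 4 fell in replicate 3, where 6341 of all 22200 probe sets tested fell.

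**Figure D4:**
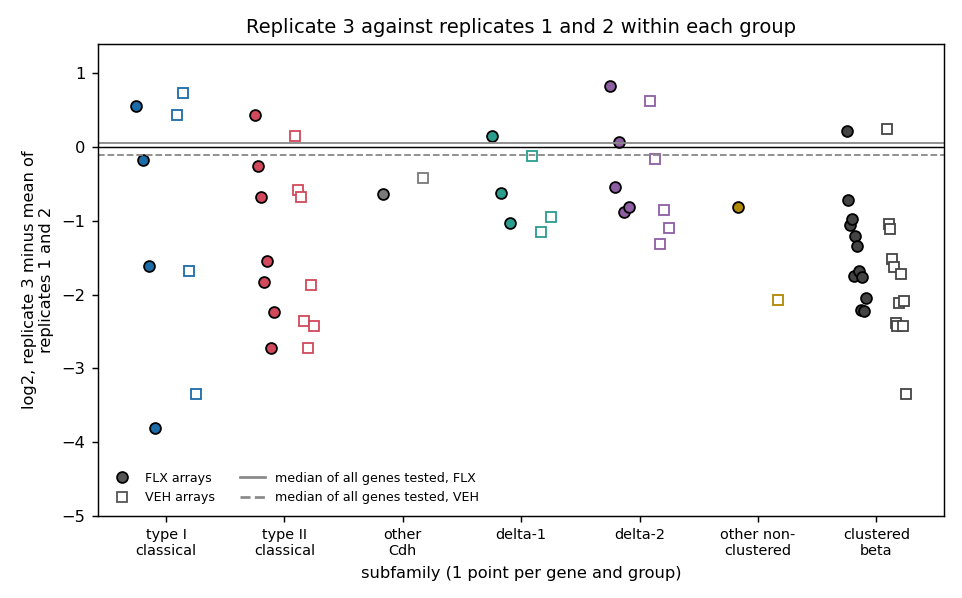
Log2 value of replicate 3 minus the mean of replicates 1 and 2, 1 point per tested gene and group (filled circles FLX, open squares VEH), by subfamily; grey lines are the medians of all genes tested, 0.06 in FLX and -0.10 in VEH. Medians in FLX and VEH are -1.51 and -1.90 for the beta protocadherins and -1.55 and -1.88 for the type II cadherins, and Cdh1 is lowest at -3.82 and -3.36.

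Probe sets of 1 gene did not always move together. Of 14 genes with several tested probe sets, 10 had the same sign in all of them for FLX minus VEH and 11 for replicate 3. The further probe sets of Pcdh10 differed between FLX and VEH by 0.70, 0.65 and -0.12 on the log2 scale, against 0.27 for the brightest. That of Cdh11 differed by -0.15, against 0.47, and that of Pcdh20 by -0.01, against 0.53. In replicate 3 the 3 tested probe sets of Cdh13, from the brightest down, differed by -0.53 (not called), by -0.74 at an adjusted p of 0.0223 and by 0.55 at an adjusted p of 0.0400, so the called ones had opposite signs.

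Other genes that work with cadherins were read from lists of catenins and junction partners, other members of the superfamily, proteases and signalling partners, and regulators of the protocadherin cluster. None was called between FLX and VEH. In the catenin list 9 of 15 tested genes were higher in FLX with a median of 0.05, among other superfamily genes 8 of 11 with 0.14, in the cleavage and signalling list 9 of 13 with 0.23, and among cluster regulators 6 of 12 with -0.01. The smallest unadjusted p in these lists was that of Fat4, a giant atypical cadherin, at -0.78 with p of 0.0664. Clstn2 differed by 0.42, Arvcf by 0.17, Ctnnb1 by 0.14, Aph1a by -0.33, Fyn by 0.23, Nipbl by -0.35 and Smc3 by 0.32.

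Of 15 tested catenins and junction partners, 6 fell and 3 rose in replicate 3, with a median of -0.22. Over all genes tested, 31.5% fell and 25.7% rose, so these counts were near the share of all genes. Ctnnb1, beta-catenin, read 19143, 21672 and 23135 in FLX and 20222, 21194 and 16823 in VEH, and was not called at -0.06, and p120-catenin, Ctnnd1, was not called at -0.20. The neuronal catenins Ctnna2 and Ctnnd2 rose by 1.10 and 1.15, at adjusted p of 0.00131 and 0.00118. Iqgap1, an actin scaffold, and Vcl, vinculin, fell with differences of -2.42 and -1.73, at adjusted p of 1.38e-04 and 4.75e-04.

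Of 11 tested genes elsewhere in the superfamily, 8 fell and none rose, with a median of -1.28, where 31.5% of all genes tested fell and 25.7% rose. Fat3, an atypical cadherin, and Clstn3, a calsyntenin, fell with differences of -1.61 and -2.29, at adjusted p of 3.17e-04 and 4.24e-04, and Celsr2, a planar polarity cadherin, fell by 1.46. Of 13 cleavage and signalling genes, 4 rose and 3 fell, where 25.7% of all genes tested rose and 31.5% fell. Psenen, a gamma-secretase subunit, fell by 1.52 at an adjusted p of 2.09e-04, and Dab1, the reelin adaptor, rose by 1.61 at 4.95e-04. Of 12 cluster regulators, 4 rose and 1 fell, to be read against the same shares. Rest, a repressor of neuronal genes, fell by 1.55 at an adjusted p of 2.51e-04. Dnmt1, the maintenance DNA methyltransferase, rose by 2.10 at an adjusted p of 0.00173, with 1454 in FLX replicate 3 and 4182 in VEH replicate 3.

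Cell type markers differed by replicate number as well, and their part in the cadherin differences was not tested. Their counts are to be read against all genes tested, of which 31.5% fell and 25.7% rose. Of 12 leptomeningeal and fibroblast markers, 11 fell and none rose in replicate 3, with a median of -3.69, and their summed intensity went from 38508 to 66254 in replicates 1 and 2 to 3205 to 5961 in replicate 3. Pericyte and smooth muscle markers fell in 3 and rose in 1 of 4 tested, with sums of 4094 to 8313 and then 1964 to 2027. Endothelial markers fell in 3 of 4, with sums of 303 to 373 and then 204 to 269, and microglial markers in 4 of 8, with sums of 2914.5 to 4309 and then 1913 to 2525. None of these lists was at 0 in replicate 3.

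Neuronal and glial marker lists differed in direction, and several counts are small and near the shares of all genes tested (25.7% rose and 31.5% fell). Oligodendrocyte markers rose in 4 and fell in 2 of 7, with summed intensity of 24529 to 28275 in replicates 1 and 2 and 65432 to 66420.5 in replicate 3. Interneuron markers rose in 4 of 8 and none fell, with sums of 16171 to 22415 and then 34032 to 44214. Pyramidal markers rose in 4 and fell in 1 of 6, with sums of 9853 to 12630.3 and then 17783 to 21732. Pan-neuronal markers rose in 3 and fell in 1 of 6, with sums of 99202 to 111447 and then 116233 to 121646. Astrocyte markers rose in 3 and fell in 3 of 7, with sums of 22997 to 33019 and then 33457 to 36105. Of 3 oligodendrocyte precursor markers 1 fell and none rose, with sums of 559 to 1216 and then 325 to 382.

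Between FLX and VEH no marker was called. The summed leptomeningeal markers spanned 3205 to 66254 in FLX and 5961 to 65729 in VEH, with a median difference of -0.37, and -0.67, 0.14 and -0.46 within replicates 1, 2 and 3. Medians were -0.68 for pericyte, 0.12 for endothelial, 0.09 for microglial, 0.28 for astrocyte, 0.01 for oligodendrocyte, 0.16 for oligodendrocyte precursor, 0.12 for pan-neuronal, 0.22 for pyramidal and 0.29 for interneuron markers. The family median of 0.32 lay beside these, and the part of cell composition in it was not tested.

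**Figure D5:**
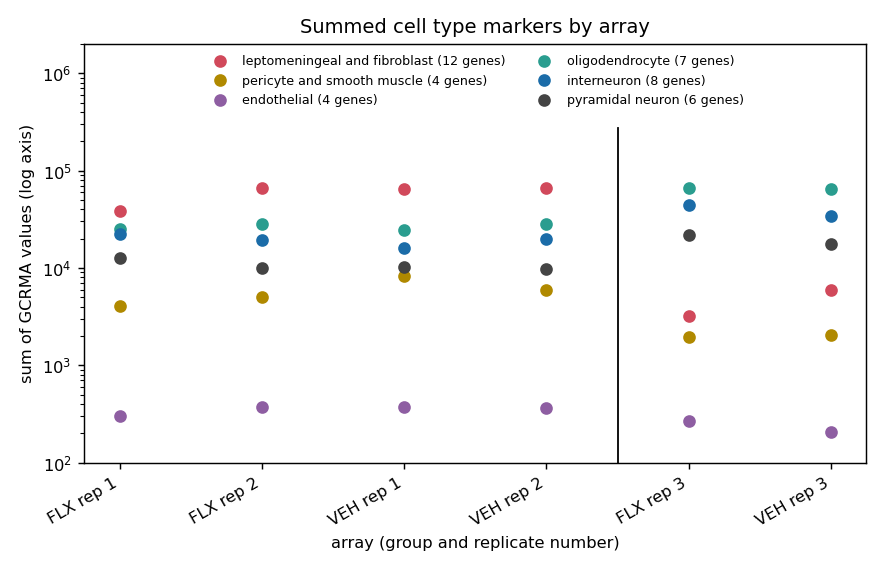
Summed normalized intensity of the tested genes of 6 cell type marker lists on every array, on a log axis, with colour for the list and the replicate 3 arrays right of the line. Leptomeningeal and fibroblast sums drop from 38508 or more to 5961 or less in replicate 3, while oligodendrocyte sums go from 28275 or less to 65432 or more.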

How the data were processed

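Per the labels, TRAP RNA from cortex (15 ng, 2-cycle amplification) was hybridised to 1-colour Affymetrix arrays, 3 per group. The authors deposited linear intensities per probe set, made with GCRMA per the submitters' processing notes, with version and settings not given in the sources used here. The number of arrays limits the precision.

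Of 45101 probe sets, 64 were controls and were left out. The platform annotation gave 1 gene symbol to 34945, several to 932 and none to 9160. Of the single symbols, 34754 matched a newer RefSeq gene table, which changed 0. Probe sets with a mean of 50 or more in FLX or VEH were tested, 22200 in all, with limma 3.58.1 in R 4.3.3 on log2 intensity, no pseudocount, two-sided, with Benjamini-Hochberg adjustment over all of them at 0.05. Checks on data simulated from the means and residual spread of these arrays were run after the fits. P-values measure the spread between these arrays, which may be partly technical.

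Members and lists were chosen with earlier results of these data known. Values by array were given for the 8 brightest members, the 6 with the smallest p per direction of FLX versus VEH, the 8 with the largest called differences per direction of replicate 3, and genes whose probe sets disagreed in sign. Partner genes were Ctnnb1, Ctnnd1, Ctnnd2, Ctnna2, Celsr2 and the 2 with the smallest p per list and comparison, of which some are given.

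FLX and VEH share replicate numbers, whose meaning the labels do not state. Deviations from group means correlated at r = 0.70, 0.84 and 0.87 between like numbers, and FLX replicate 2 with VEH replicate 1 reached 0.76 and FLX replicate 1 with VEH replicate 2 0.64. The FLX versus VEH errors and p-values given are from the fit without the number unless the block is named. A fit with the number as a block was an alternative. Alternatives were the replicate block, a pseudocount of 16, other filters, scalings, eBayes settings and probe set choices, and each array left out.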

Additional observations from a re-analysis of the deposited data

How the results depend on the processing

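No probe set and no family gene was called between FLX and VEH under any alternative. The replicate block gave 0 called probe sets and 0 called family genes, and changed no call. With it, 1764 probe sets had an unadjusted limma p below 0.05. Counted by gene, these were 9 of 33 family genes and 928 of 12213 genes tested. With 1 array left out, Cdh1 went from -0.40 to values between -1.52 and 0.88, positive when FLX replicate 3 (0.88), VEH replicate 2 (0.26) or VEH replicate 1 (0.06) was missing. Pcdhb3 ranged from -0.019, in the absence of VEH replicate 3, to 1.23. Both genes were lowest in the replicate 3 arrays, and leaving out 1 array unbalances these between the groups. The ranges of Cdh1 and Pcdhb3 therefore carry part of the replicate 3 difference. For replicate 3 the number of family genes called was 25, and 22 to 27 with 1 array left out, when 10187 to 11799 probe sets were called of 12377. With 50 or more required on all arrays 17 of 23 genes were called, and 26 of 33 after quantile normalization. The share of called probe sets that were higher was 48.8%, 57.0% with quantile normalization and 58.2% with median centring. Pcdh17 was not called from the mean of its probe sets (0.50) or without FLX replicate 3 (0.62), and Cdh15 not without FLX replicate 2 (0.47), FLX replicate 3 (0.44) or VEH replicate 2 (0.50). Low intensity limited 23 genes, which stayed below the minimum. What the replicate number stands for was not given, so replicate 3 cannot be told apart from whatever else those arrays share.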
